A study of Homo sapiens with 3 samples.

Results

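The MYC, MAX and MXD network was examined in 5637 cells, an established human bladder cancer line, after transfection of small interfering RNA (siRNA) against CDCA3, a cell division cycle associated gene. The series holds 3 libraries, all from cells labelled wild type. One received a control siRNA (siNC) and 2 received siRNA against CDCA3 (siCDCA3-1 and siCDCA3-2). The labels give neither the time after transfection nor whether siCDCA3-1 and siCDCA3-2 are different siRNAs or repeated cultures, and both were treated as 1 group. The network comprised 10 named genes of the 19225 in the deposited table: MYC, MYCL, MAX, MXD1, MXD3, MXD4, MXI1, MNT, MLX and MGA. Where a gene had several transcript rows, 1 row was chosen by its summed counts over the 3 libraries, so 10 of the network's 27 rows stand for the genes. The genes were listed with earlier results from these libraries in view, so their levels are given as descriptions. All 10 had a mean of at least 1 RPKM (reads scaled to transcript length and to the library's total) and were among the 10153 genes tested, and 4 had a mean of at least 5.

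MYC and MYCL are transcription factors that bind DNA as dimers with MAX, at the E-box sequence CACGTG, and activate genes of growth and ribosome production. The MXD proteins (MXD1, MXD3, MXD4 and MXI1) and MNT also pair with MAX and bind the same sites, where they recruit SIN3 and histone deacetylases and repress transcription. MGA, a very large protein with a T-box domain, also pairs with MAX and belongs to a repressive Polycomb complex, PRC1.6. MLX is a MAX-like partner for MXD1, MXD4, MNT and the glucose-responsive factors MondoA and ChREBP. MYC RNA and protein are both short-lived, and MYC is raised in many epithelial cancers.

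CDCA3 itself stood at 5.52 RPKM in siNC against 0.574 in siCDCA3-1 and 1.40 in siCDCA3-2, so the target was low in both knockdown libraries. The 3 libraries held 40420563 to 62389922 gene-level counts. Epithelial markers were detected in all of them (7 of 7 with a mean RPKM of at least 1, summed RPKM 1408 to 2264). Urothelial markers were only partly present, with 3 of 8 measured (GATA3, PPARG and KRT13), whereas UPK1A, UPK1B, UPK3A and KRT20 were near 0. Endothelial markers summed to at most 0.106 RPKM, and 1 of 7 fibroblast and 1 of 7 leukocyte markers reached a mean of 1 (COL1A1 and CD68). Summed fibroblast markers were 7.23 RPKM in siNC against 10.0 in siCDCA3-1 and 2.39 in siCDCA3-2, mostly from COL1A1, and their part in the results below was not tested. In bulk RNA, a change in the number of cells of a kind and a change in RNA per cell cannot be told apart.

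MYC and MXD4 were the members that differed most between the siCDCA3 libraries, in opposite directions. MYC stood at 27.5 RPKM in siNC against 17.3 in siCDCA3-1 and 54.9 in siCDCA3-2, from 8490, 4265 and 20864 counts. The siNC level thus lay between the libraries of the knockdown group. MYC (NM_002467.4, GRCh38 chromosome 8, 127735434 to 127742951) was thus at 62.9% of siNC in siCDCA3-1 (95% interval on counts 60.6% to 65.3%) and at 199.6% in siCDCA3-2 (194.6% to 204.7%). These intervals are exact binomial intervals on the counts of 2 libraries and cover counting error only. Between the siCDCA3 libraries the MYC level differed 3.17-fold (3.07 to 3.28). No exon of another gene overlaps this transcript in GENCODE 29. MYCL, the family member first found in lung cancer, was much lower, with 1.32, 1.94 and 1.47 RPKM, given here and below in the order siNC, siCDCA3-1, siCDCA3-2. Its siNC value was below both siCDCA3 values, at 148% of siNC in siCDCA3-1 (132% to 165%) and 112% in siCDCA3-2 (101% to 124%).

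The other member of the MYC family, MYCN, is outside the 10 genes and had 0, 1 and 4 counts, so MYC supplied most of the family's RNA in these cells.

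**Figure D1:**
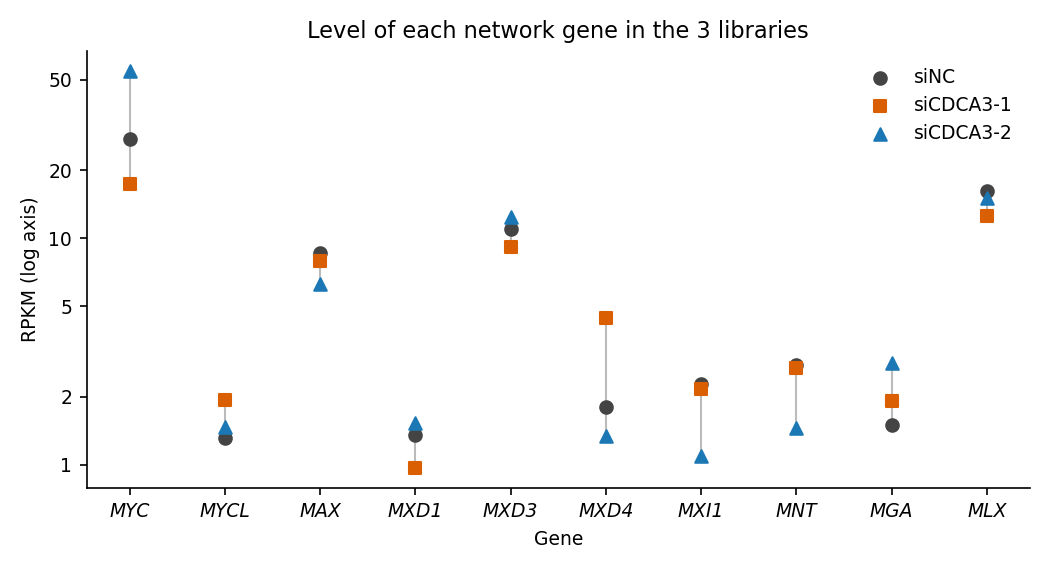
RPKM of the 10 network genes (log axis) in siNC (circles), siCDCA3-1 (squares) and siCDCA3-2 (triangles), with a line over each gene's range. MYC spans 17.3 to 54.9 and MXD4 1.35 to 4.43, and MAX, MXD3 and MLX lie closer together.

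MAX, the shared partner, was less variable. Its RPKM was 8.62, 7.94 and 6.29, and siNC was above both siCDCA3 libraries. MAX was thus at 92.2% of siNC (86.6% to 98.0%) and 73.0% (68.8% to 77.4%). MAX and MYC went apart in siCDCA3-2, where MYC was highest and MAX lowest. The ratio of MYC to MAX RPKM was 3.19 in siNC against 2.18 in siCDCA3-1 and 8.73 in siCDCA3-2.

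Among the antagonists, MXD4 carried the widest difference and it ran opposite to that of MYC. MXD4 (NM_006454.2) stood at 1.81, 4.43 and 1.35 RPKM, from 890, 1741 and 816 counts. It was high in siCDCA3-1 alone, at 245% of siNC (226% to 266%), and was at 74.5% in siCDCA3-2 (67.6% to 82.0%). The level in siCDCA3-2 was 30.4% of that in siCDCA3-1 (27.9% to 33.0%). MXI1, also called MXD2, had 2.27, 2.16 and 1.10, and MNT, which unlike most MXD genes is expressed in both resting and dividing cells, had 2.75, 2.67 and 1.46. Both were therefore near the siNC level in siCDCA3-1 and low in siCDCA3-2, at 48.4% (43.7% to 53.5%) for MXI1 and 53.1% (49.3% to 57.3%) for MNT. In siCDCA3-1 their counting intervals against siNC held equality (86.8% to 104.8% and 90.1% to 104.1%). Of the exon bases of the MNT transcript, 21.3% also lie in AC006435.1, an antisense gene on the opposite strand that is not analysed here.

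MXD1 and MXD3 went the other way and were highest in siCDCA3-2. MXD1, an MXD gene linked to differentiation, had RPKM of 1.36, 0.969 and 1.52. MXD3, the MXD gene associated with S phase, was the most abundant antagonist, with 11.0, 9.13 and 12.4. For both genes siNC lay between the siCDCA3 libraries. MXD3 was read from NM_001142935.1, of whose GENCODE 29 exon bases 51.0% also lie in PRELID1 on the opposite strand, a mitochondrial protein gene with RPKM of 50.2, 40.1 and 64.4. The shorter MXD3 transcript NM_031300.3 shares no exon bases with another gene, and its RPKM was 5.16, 5.47 and 4.39, lowest in siCDCA3-2. The order of the libraries for MXD3 thus turned with the transcript row, and the sources used here do not give whether reads were counted by strand.

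MGA and MLX extend the network beyond MYC. MGA (NM_001164273.1) stood at 1.498 RPKM in siNC against 1.92 in siCDCA3-1 and 2.81 in siCDCA3-2, the only member besides MYCL with siNC below both siCDCA3 libraries. It stood at 128% of siNC (121% to 135%) and 188% (179% to 197%). MLX had 16.1, 12.5 and 15.03, with siNC above both, at 77.7% (74.4% to 81.1%) and 93.5% (90.1% to 96.9%). Of the exon bases of its transcript 29.8% also lie in PSMC3IP on the opposite strand, a recombination cofactor gene with RPKM of 13.6, 7.45 and 13.3, which was lowest in siCDCA3-1 as well. Smaller shares of the rows used for MYCL (13.4%), MXI1 (5.91%), MAX (5.04%) and MXD4 (1.97%) also lie in antisense or microRNA genes. What part overlapping reads have in the levels of MXD3, MNT, MLX, MYCL, MXI1, MAX and MXD4 was not tested.

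By RPKM, MYC ranked 1, MLX 2, MXD3 3 and MAX 4 in each of the 3 libraries. Read from its shorter transcript (5.16, 5.47 and 4.39), MXD3 would lie below MAX in each library. The order of the 6 genes of lower level was not fixed. MXD4 ranked 5 in siCDCA3-1 and 9 in siCDCA3-2, MXI1 ranked 6 in siNC and 10 in siCDCA3-2, and MGA ranked 8 in siNC and 5 in siCDCA3-2. With 1 control library, neighbours among these 6 cannot be separated by replicate spread.

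Read as 1 group against siNC, the siCDCA3 libraries did not give a call for any member. Of the 10153 genes, 3 passed an adjusted p of 0.05 in edgeR's quasi-likelihood test (0.0295%), and 0 of the 10 members did, each with an adjusted p of 0.9997. No member had an unadjusted p under 0.05 in edgeR, DESeq2 or limma either, against 134, 155 and 121 of the 10153 genes. The knockdown target CDCA3, with a log2 fold change of -2.50, was not called by the same test (unadjusted p = 0.0025, adjusted p = 0.9997 in edgeR). The largest edgeR log2 fold changes were 0.72 for MXD4 (standard error 0.72, unadjusted p = 0.334 in edgeR) and 0.66 for MGA (standard error 0.50, unadjusted p = 0.213 in edgeR). For MYC it was 0.37 with a standard error of 0.62, and without siCDCA3-1 or without siCDCA3-2 the value was 0.94 or -0.59. For MXD4 these values were -0.49 and 1.37, so the sign for both genes rested on which siCDCA3 library was kept. These single-library values have no test. The test assumes that the lone siNC library varies like the siCDCA3 libraries and has 1 residual degree of freedom, so a high p does not show that a level was equal. It also draws each gene's spread toward that of genes in general, with 12 prior degrees of freedom. The standard errors and p-values therefore do not come from each gene alone.

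Counted by position, siNC was below both siCDCA3 libraries for 2 members (MYCL and MGA) and above both for 4 (MAX, MXI1, MNT and MLX). Over all genes tested these positions were taken by 23.6% and 27.8% of genes. With TMM-scaled values, in which library totals are adjusted to the bulk of genes, MXI1 and MNT in siCDCA3-1 moved to just above siNC (log2 differences of 0.0094 and 0.026), which leaves MAX and MLX with siNC above both.

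Size was measured as the difference in log2(RPKM + 1), a scale that understates changes of low genes, with a size minimum of 1. No member reached it in siCDCA3-1, where 0.847% of all genes were higher and 1.74% lower by that size. Nor did any in siCDCA3-2, where the shares were 1.42% and 3.27%. MXD4 in siCDCA3-1 (0.95) and MYC in siCDCA3-2 (0.97) lay just under the minimum, and MXD4 passed it with a pseudocount of 0.5 (1.10) or with TMM scaling (1.02). Against each other, the siCDCA3 libraries differed by at least 1 for 2 of the 10 members. MYC was 1.61 higher in siCDCA3-2, a direction in which 4.9% of all genes passed, and MXD4 was 1.21 lower, a direction in which 3.72% passed. The median difference from siNC over the members was -0.076 in siCDCA3-1 and 0.0018 in siCDCA3-2, against -0.067 and 0.046 over all genes tested. Both sets of differences use the same siNC library.

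**Figure D2:**
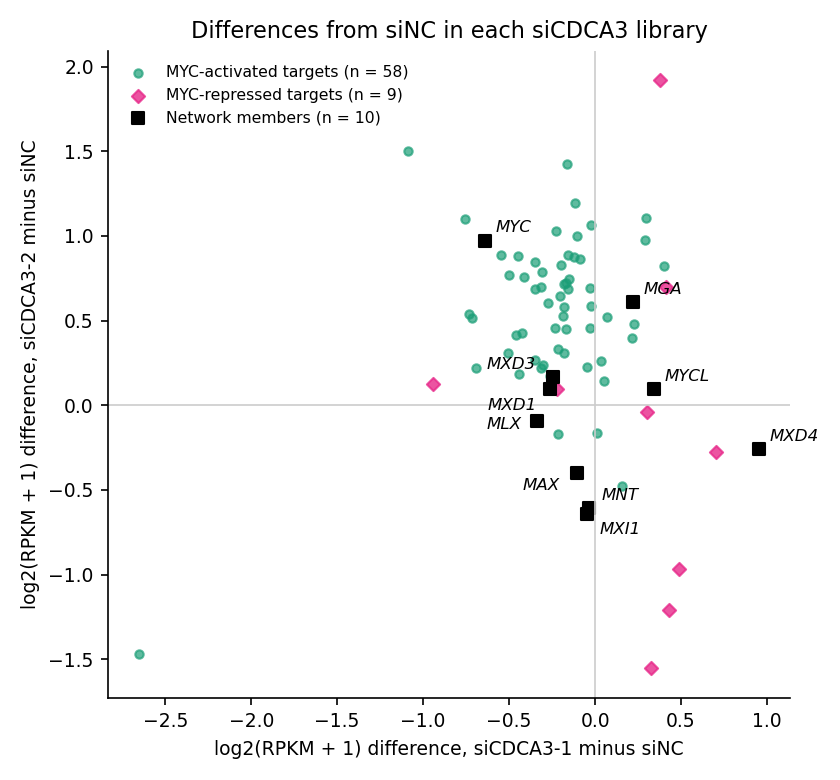
Difference from siNC in log2(RPKM + 1) for siCDCA3-1 (x axis) and siCDCA3-2 (y axis); squares are the 10 members, circles 58 MYC-activated targets and diamonds 9 MYC-repressed targets. MYC and most activated targets lie at the upper left (lower in siCDCA3-1, higher in siCDCA3-2), and MXD4 lies at the lower right. Both axes share the siNC library.

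Summed over MXD1, MXD3, MXD4, MXI1 and MNT, the antagonists had 19.2 RPKM in siNC against 19.4 in siCDCA3-1 and 17.9 in siCDCA3-2. The sum thus stayed within a narrow range while its makeup differed, but this held for the main MXD3 row only. With the shorter MXD3 transcript, a choice made after the data were seen, the sums were 13.4, 15.7 and 9.82. MXD4 exceeded MXI1 2.05-fold in siCDCA3-1, and the MXD4 to MXI1 ratio was 0.797 in siNC and 1.23 in siCDCA3-2. Relative to this sum, MYC stood at 1.43 in siNC against 0.894 in siCDCA3-1 and 3.07 in siCDCA3-2. With the shorter MXD3 transcript the ratios were 2.06, 1.10 and 5.59, in the same order. MYC made up 37.1%, 28.4% and 55.8% of the summed RPKM of the 10 members.

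**Figure D3:**
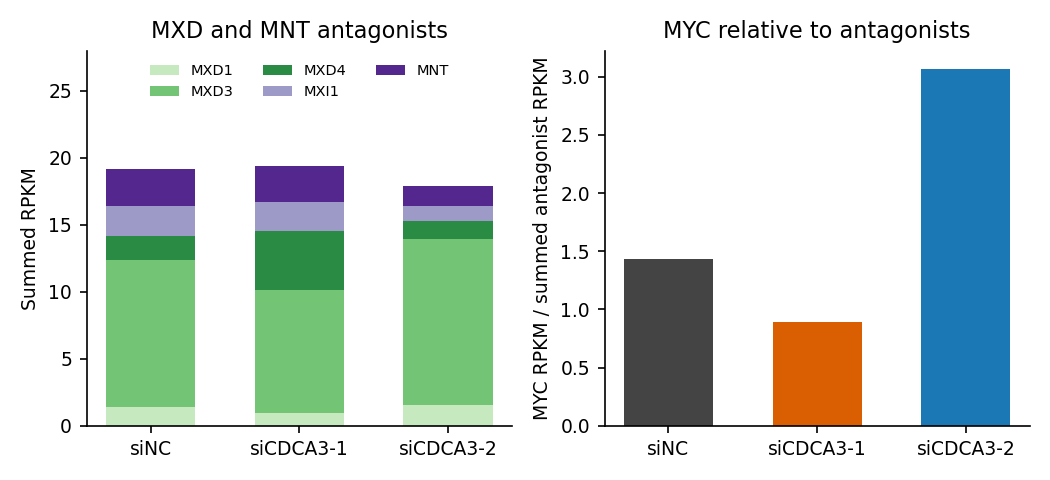
Left, RPKM of the 5 MAX-binding antagonists stacked by gene in each library. Right, MYC RPKM divided by that sum. The stacks are of like height (17.9 to 19.4) and the ratio runs from 0.894 in siCDCA3-1 to 3.07 in siCDCA3-2, each from 1 library without an error bar.

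Several transcripts were listed for 7 of the members, and the rows of a gene share reads, so they are not independent. All 3 MXI1 rows were lowest in siCDCA3-2 and all 3 MLX rows lowest in siCDCA3-1. The 8 MAX rows were each lowest in siCDCA3-2, and some short forms were highest in siCDCA3-1. NM_145114.2, a MAX row of 937 bases, had 1.90, 2.27 and 1.85 RPKM, while the longest MAX row, NM_145113.2 of 2141 bases, was highest in siNC. MXD3 was the member whose rows disagreed in direction in both siCDCA3 libraries.

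**Figure D4:**
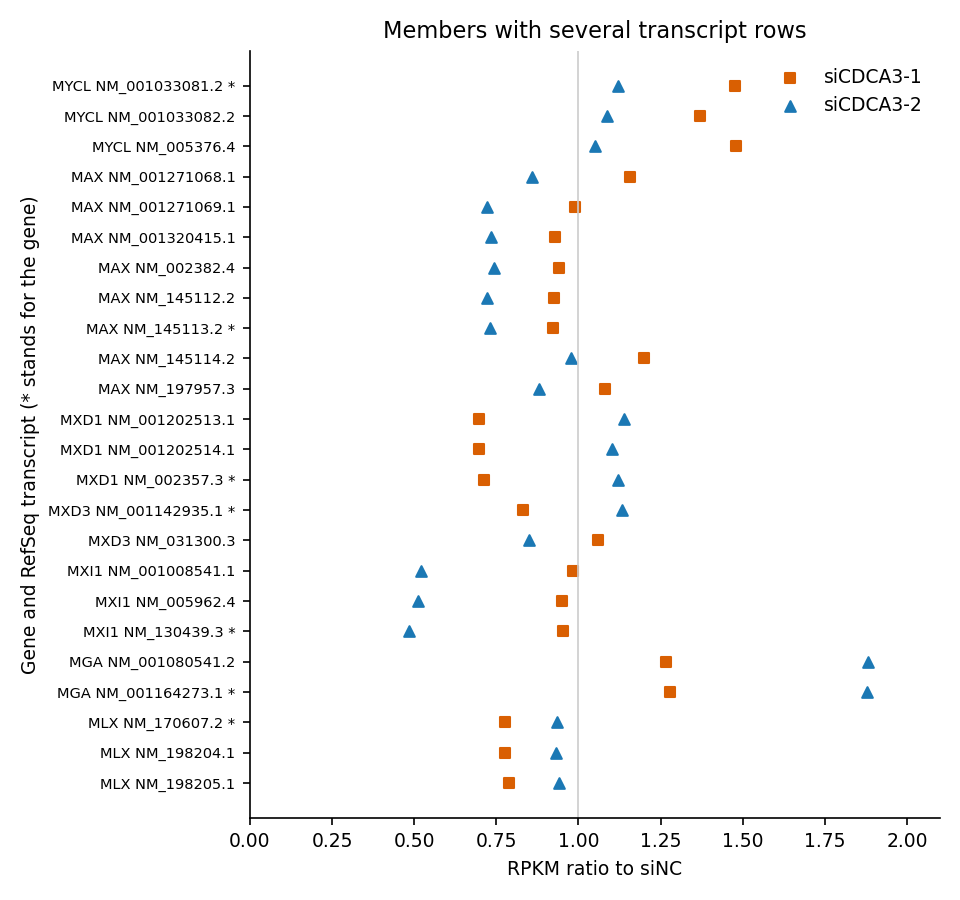
RPKM ratio to siNC of each transcript row for the 7 members with several rows, in siCDCA3-1 (squares) and siCDCA3-2 (triangles); an asterisk marks the row that stands for the gene. Rows of a gene share reads. The 2 MXD3 rows lie on opposite sides of 1 in each library.

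MYC target genes were taken from a list of 60 genes known to be activated by MYC, of which 58 were measured (mean RPKM of at least 1). This list and those below were chosen with earlier results of these data known, so their counts and medians are descriptions. None passed the edgeR test after adjustment over all genes. In siCDCA3-1 48 of the 58 were below siNC (median log2 difference -0.19, against -0.067 over all genes), and in siCDCA3-2 54 were above it (median 0.60, against 0.046). Compared directly, 56 of 58 were higher in siCDCA3-2 than in siCDCA3-1, with a median difference of 0.85 against 0.098 over all genes, of which 57.8% were higher. The difference was at least 1 for 20 of them, against 498 of all 10153 genes (4.9%). TMM scaling lowered the median of all genes in this comparison by 0.12, and the targets' median was then 0.73, with 54 higher and 13 past the size minimum, against 330 of all genes. With a single library of each siCDCA3 number, no test of this difference was possible. Of the 58 targets 49 had a mean RPKM of at least 5, against 5499 of all 10153 genes. The log2(RPKM + 1) scale understates changes of low genes, and shares at matched levels were not compared.

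NPM1, a nucleolar histone chaperone and the most abundant target, had 229, 184 and 371 RPKM. LDHA, the enzyme that makes lactate, had 109.6, 145 and 194, and was one of 8 targets with siNC below both. SHMT2, a mitochondrial serine enzyme, was the target farthest below siNC in both, with 69.4, 10.2 and 24.5 (unadjusted p = 0.0025 in edgeR, adjusted p = 0.9997). SHMT2 is also a target of the stress factor ATF4. The widest gap between the siCDCA3 libraries, chosen after the values were seen, belonged to ODC1, the first enzyme of polyamine synthesis. Its RPKM was 13.2, 5.69 and 39.3, low in siCDCA3-1 and high in siCDCA3-2 as for MYC itself. WDR43, a ribosome biogenesis factor, followed with 8.13, 4.40 and 18.5, and SRM, spermidine synthase, with 23.7, 21.1 and 65.4. MCM5, a subunit of the replicative helicase, and SHMT1, likewise named after their values were seen, were the 2 targets that were lower in siCDCA3-2 than in siCDCA3-1, MCM5 with RPKM of 20.6, 23.1 and 14.5.

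Genes known to be repressed by MYC gave a mixed picture. Of 9 measured, 7 were above siNC in siCDCA3-1 (median 0.38) and 4 in siCDCA3-2 (median -0.042). Over all genes tested, 41.4% were above siNC in siCDCA3-1 and 54.4% in siCDCA3-2. Between the siCDCA3 libraries, 5 of 9 were lower in siCDCA3-2 than in siCDCA3-1 (median difference -0.35). NDRG1, a stress and differentiation gene, had RPKM of 34.5, 43.5 and 11.1. The CDK inhibitor genes CDKN2B (4.21, 6.32 and 1.66) and CDKN1C (1.94, 2.96 and 0.274), named after their values were seen, also were highest in siCDCA3-1 and lowest in siCDCA3-2. CDKN1A, which encodes p21, had 49.7, 42.5 and 53.2. THBS1, an inhibitor of angiogenesis, had 11.7, 15.6 and 47.2, and GAS1 had 0.548, 1.06 and 1.51. GADD45A, likewise named after its values were seen, had 21.4, 10.6 and 23.4. CDKN1A, THBS1, GAS1 and GADD45A were each highest in siCDCA3-2. With 5 RPKM as the minimum mean, which leaves 6 of the 9 genes, the median difference between the siCDCA3 libraries was -0.014.

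**Figure D5:**
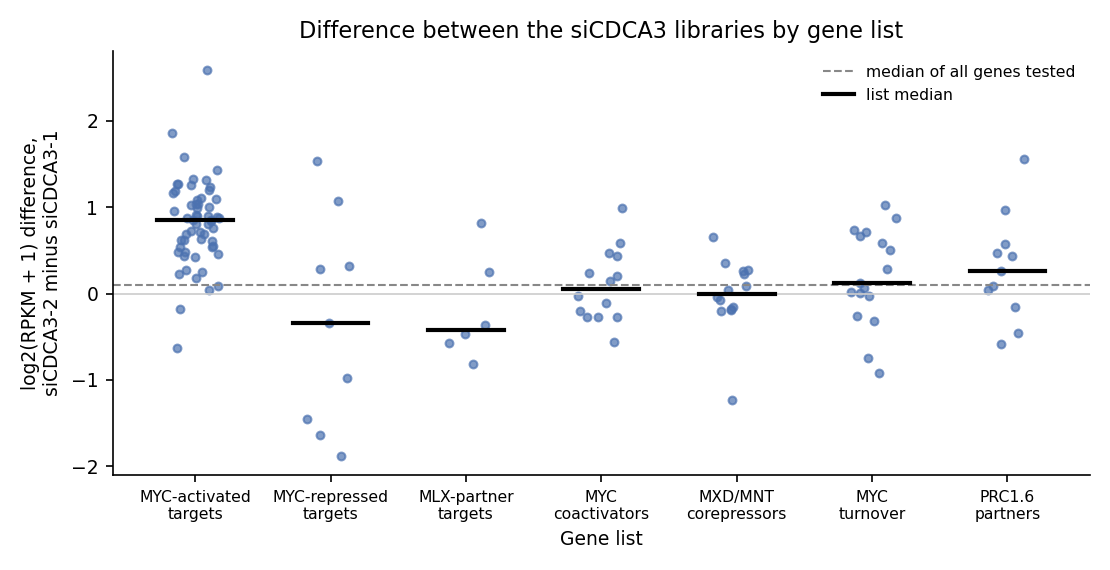
Difference in log2(RPKM + 1) between siCDCA3-2 and siCDCA3-1 for the measured genes of 7 lists, with list medians (bars) and the median of all genes tested (dashed, 0.098). The MYC-activated targets have a median of 0.85 and the other 6 lists have medians from -0.42 to 0.26.

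Promoter sequences were drawn from RefSeq (GRCh38.p14) for the 250 bases before each gene's start, to show where the E-box that these proteins bind lies. Of the members 9 were matched, all but MYC, whose promoter was therefore not searched. The palindrome CACGTG, which reads the same on both strands, was present upstream of 3 (MXD4, MNT and MLX). It was found in 6.49% of all 27305 promoters and in 9.39% of the 8381 matched promoters of genes tested. A match is a description of the letters and does not show binding. The windows of the 3 members are printed 5′ to 3′ on the gene's strand, with the E-box in capitals: MXD4 (chr4:2262110-2262359, minus strand), MNT (chr17:2401061-2401310, minus strand) and MLX (chr17:42566850-42567099, plus strand). The motif begins 238, 193 and 50 bases before the start in that order.
MXD4: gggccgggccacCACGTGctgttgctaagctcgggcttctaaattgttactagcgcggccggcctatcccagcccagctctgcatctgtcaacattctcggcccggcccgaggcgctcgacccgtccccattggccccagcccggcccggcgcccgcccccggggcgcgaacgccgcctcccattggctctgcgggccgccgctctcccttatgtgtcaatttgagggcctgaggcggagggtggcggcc
MNT: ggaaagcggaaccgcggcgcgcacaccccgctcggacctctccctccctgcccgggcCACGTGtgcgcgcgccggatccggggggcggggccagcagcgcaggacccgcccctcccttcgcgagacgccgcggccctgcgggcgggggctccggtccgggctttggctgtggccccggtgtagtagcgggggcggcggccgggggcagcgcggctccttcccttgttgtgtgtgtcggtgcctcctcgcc
MLX: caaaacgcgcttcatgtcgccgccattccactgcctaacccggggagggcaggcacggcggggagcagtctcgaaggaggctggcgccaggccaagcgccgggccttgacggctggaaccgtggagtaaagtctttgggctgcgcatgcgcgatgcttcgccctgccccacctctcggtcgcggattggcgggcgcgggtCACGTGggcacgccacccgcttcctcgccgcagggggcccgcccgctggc

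All 3 genes were below siNC in siCDCA3-2, MXD4 and MNT with their lowest value there. MAX and MXI1, whose windows held no CACGTG, were also below siNC in siCDCA3-2, as were 4630 of the 10153 genes tested. In siCDCA3-1 MXD4 was above siNC and MLX below it, and MNT was near the siNC level. Of the MYC-activated targets, 12 of 47 matched promoters held the E-box (25.5%). Between the siCDCA3 libraries, these 12 had a median difference of 0.90 and the 35 without it had 0.81. The 4 E-box targets with the widest difference, picked by their values, were SRM (1.59), the mitochondrial chaperonin gene HSPD1 (1.31), the arginine methyltransferase gene PRMT3 (1.23) and the importin gene IPO4 (1.11). Their sites are shown with the bases around the E-box, for SRM at chr1:11060197-11060232, minus strand, HSPD1 at chr2:197500342-197500377, minus strand, PRMT3 at chr11:20387514-20387549, plus strand and IPO4 at chr14:24188825-24188860, minus strand.
SRM: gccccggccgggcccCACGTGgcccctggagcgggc
HSPD1: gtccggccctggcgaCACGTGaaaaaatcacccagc
PRMT3: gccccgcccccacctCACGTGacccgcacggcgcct
IPO4: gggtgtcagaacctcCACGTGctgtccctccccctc

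HSPD1 and HSPE1, its co-chaperonin gene, are transcribed in opposite directions from a common promoter and share the site shown. HSPD1 had RPKM of 53.3, 49.1 and 123, and HSPE1 had 30.4, 27.9 and 56.6.

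The MLX branch was described through MondoA and ChREBP. MLXIP, which encodes MondoA, had 6.42, 8.63 and 7.75 RPKM, and MLXIPL, which encodes ChREBP, had 0.751, 1.29 and 0.272. Of 10 target genes of these factors 6 were measured. In siCDCA3-1 5 of them were above siNC (median log2 difference 0.47) and in siCDCA3-2 4 were (median 0.27). FASN, fatty acid synthase, had 54.4, 109.9 and 79.1, PFKFB3, a regulator of glycolysis, had 14.5, 21.1 and 13.8, and HK2, a hexokinase that is also a MYC target, had 2.52, 3.12 and 3.91. TXNIP, the best-known MondoA target and named after its values were seen, had 13.2, 21.3 and 11.7, highest in siCDCA3-1. KLF10, also named after its values were seen, had 13.1, 10.7 and 19.6, highest in siCDCA3-2. It was the only measured target of this list below siNC in siCDCA3-1. None of the 6 passed the edgeR test.

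None of the measured cofactors passed the edgeR test. The 14 MYC coactivators had a median log2 difference from siNC of -0.031 in siCDCA3-1 and 0.22 in siCDCA3-2, and none differed by 1 or more between the siCDCA3 libraries. SMARCB1, a subunit of the SWI/SNF remodeller, had RPKM of 39.6, 37.8 and 32.7, and the ATPase gene RUVBL2 had 34.6, 29.9 and 40.9. The acetyltransferase gene KAT2A (10.6, 14.4 and 16.1) and the MYC-binding cofactor gene HCFC1 (12.1, 14.9 and 17.7) had siNC below both siCDCA3 libraries. The 14 corepressor genes of the MXD and MNT proteins had medians of -0.061 and 0.093, among them the histone deacetylase gene HDAC1 (34.7, 39.0 and 40.2) and the histone-binding genes RBBP7 (51.2, 48.3 and 58.4) and RBBP4 (10.9, 14.2 and 13.7).

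Genes that govern the stability of MYC protein (17 measured) had medians of -0.25 and 0.0081. The kinase gene PIM1 was highest in siNC, with RPKM of 15.1, 10.6 and 5.86, and FBXW7, the ubiquitin ligase subunit that marks MYC for destruction, had 1.48, 2.12 and 2.06. The mitotic kinase gene PLK1 had 23.0, 17.9 and 30.0. MYC protein was not measured. Of the PRC1.6 partners of MGA, 11 of 12 were measured, with medians of -0.20 and 0.21. TFDP1, which dimerizes with E2F factors, had 47.4, 24.6 and 74.7, and RING1, a ubiquitin ligase subunit, had 13.4, 10.8 and 7.55. None of 12 germline genes known to be repressed through MGA reached a mean RPKM of 1, and the highest value was 0.277, for STAG3 in siCDCA3-1.

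The genes most like MYC were sought by the distance between pairs of log2 differences from siNC, over 3 libraries and 5498 other genes whose mean RPKM was 5 or more. They were MRPL3, a mitochondrial ribosomal protein gene (RPKM 21.01, 12.9 and 42.6, distance 0.027), CDK1, the mitotic kinase gene (11.9, 7.55 and 23.8, distance 0.054), and BOP1, a ribosome biogenesis gene that is also among the targets above (16.8, 11.2 and 31.8, distance 0.13). MGA, the member with the largest difference in the same direction in both libraries, was nearest to KCNK1 (11.0, 13.0 and 17.2, distance 0.0082), FAT1 (4.90, 5.81 and 7.93) and BAG1 (6.31, 7.58 and 9.996). Within a distance of 0.1 there were 2 genes for MYC and 47 for MGA, whose differences from siNC were smaller on the log2(RPKM + 1) scale. That scale understates changes of low genes, and MGA had a mean RPKM of 2.08, below the 5 required of the genes compared. As ratios to siNC, MGA stood at 1.28 in siCDCA3-1 and 1.88 in siCDCA3-2, and MYC at 0.629 and 2.00. Likeness over 3 libraries is a description.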

How the data were processed

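RNA was measured in 3 libraries of 5637 cells. Per the submitters' processing notes, Trimmomatic 0.36, FastQC, HISAT2 and HTSeq were used, with hg38 and a mouse build listed without a role. The authors deposited a whole-number read count for each RefSeq transcript and library. They also deposited RPKM, which the values show to be the count divided by transcript length and by 1 total per library (104153360 to 160640877). A human RefSeq gene table (GRCh38.p14) matched 98.6% of accessions, and 102 of 103 symbols that a spreadsheet had turned into dates were restored.

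Each gene was read from the transcript row with the most counts. The longest row was the same for all 10 members. Main test: edgeR 4.0.16 (R 4.3.3), TMM, quasi-likelihood fit of siCDCA3 against siNC, two-sided, with p-values adjusted by Benjamini-Hochberg over the 10153 genes whose mean RPKM was 1 or more. Standard errors were computed as the size of the log2 fold change divided by the root of the F statistic. Alternatives were DESeq2 1.42.0, limma 3.58.1, median-of-ratios scaling, other filters, pseudocounts of 0.1 and 0.5 in place of 1, TMM-scaled values and each siCDCA3 library left out. The test was tried on simulated counts first. The simulated spread between replicates was smaller than that estimated here (common dispersion 0.126), so the trial does not show the power of the test in these data. Nothing in the labels says that the siCDCA3 libraries came from separate cultures. The p-values thus rest only on the spread between these libraries, shared in part over genes, which may be technical.

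The members and lists were chosen with earlier results of these data known. All members and MYCN, MLXIP and MLXIPL are named. From each list, the 2 genes with the highest mean RPKM and the 2 with the largest difference in the less changed siCDCA3 library (same direction in both) are named. A gene that this rule would name is not reported here.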

Additional observations from a re-analysis of the deposited data

How the results depend on the processing

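No member was called in the edgeR fits (main, other filters, median-of-ratios scaling, longest transcript) or in the single DESeq2 and limma fits, and each member tested kept the sign of its log2 fold change. At a mean RPKM of at least 5 this covers 4 members. The longest transcript is the row already used for all 10, and the shorter MXD3 row was not fitted. With 1 siCDCA3 library left out, which gives no test, the direction turned for MYC, MXD1, MXD3, MXD4, MXI1 and MNT. Over all genes, DESeq2 called 2 higher and 8 lower, limma 0 lower, edgeR at a mean RPKM of at least 5 called 0 lower, and edgeR without a filter called 4 higher and 18 lower, against 0 and 3. At an unadjusted p under 0.05 limma had 121 genes and edgeR at a mean RPKM of at least 5 had 74. With a pseudocount of 0.1 the genes past the size minimum were 168 higher and 332 lower in siCDCA3-1, 347 and 552 in siCDCA3-2, and 903 and 609 between the siCDCA3 libraries. With 0.5, 231 were higher in siCDCA3-2, and with TMM scaling 330 were higher in siCDCA3-2 than in siCDCA3-1. TMM scaling put the median between the siCDCA3 libraries at -0.26 for MLXIP, the measured gene of the extended network, and at -0.14 for the corepressors. At a mean RPKM of at least 5 the medians were 0.093 for corepressors in siCDCA3-1, 0.065 for MondoA and ChREBP targets in siCDCA3-2 and -0.014 for MYC-repressed targets between the siCDCA3 libraries. With each siCDCA3 library left out in turn, list medians ran from -0.19 to 0.60 for MYC-activated targets, -0.20 to 0.21 for PRC1.6, -0.031 to 0.22 for coactivators, -0.061 to 0.093 for corepressors, -0.25 to 0.0081 for MYC turnover, -0.042 to 0.38 for MYC-repressed targets and 0.27 to 0.47 for MondoA and ChREBP targets. The cause of these shifts was not tested. No paired analysis was possible because siNC is a single library without a replicate number.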
